A study of Homo sapiens with 12 samples.

Results

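Protein phosphatase 1 (PP1) genes were followed in the human gastric cancer cell lines MKN1 and AGS grown with or without cantharidin sodium. The set held every gene named PPP1CA, PPP1CB or PPP1CC, the 3 catalytic subunits, or PPP1R and a number, the regulatory subunits, that is annotated as protein coding and had at least 10 counts over all libraries. It came to 40 of the 32269 genes in the count table. Another 14 rows with such names were antisense transcripts, pseudogenes or other non-coding entries and were left out, and no protein-coding candidate fell under the minimum. The members were 3 catalytic genes, 1 assembly factor, 9 inhibitors, 3 nuclear targeting subunits, 2 subunits that act on the translation factor eIF2, 8 myosin- and actin-directed subunits, 6 glycogen-targeting subunits, 2 ASPP proteins and 6 others.

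PP1 is a serine/threonine phosphatase whose catalytic subunit is nearly always bound to a regulatory partner. The partners decide where the enzyme sits and what it dephosphorylates: glycogen particles, myosin, chromatin and RNA polymerase II, or the translation factor eIF2, whereas inhibitor proteins block the active site. Cantharidin sodium is a salt of cantharidin, a blister beetle toxin that is known to block the catalytic sites of PP2A and, less strongly, of PP1. Messenger RNA levels were measured here and not phosphatase activity.

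The 4 groups were cantharidin sodium-treated MKN1 cells, untreated MKN1 cells, cantharidin sodium-treated AGS cells and untreated AGS cells, each with 3 libraries numbered as replicates. All are labelled wild type, and all were grown in RPMI-1640 with fetal bovine serum and antibiotics. MKN1 is labelled as an adenosquamous carcinoma and AGS as an adenocarcinoma, and each is a single established tumour line. The labels used here state neither the dose nor the exposure time. Fragmented mRNA was sequenced in bulk, so fewer cells and less RNA per cell cannot be told apart.

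The 12 libraries held 28604966 to 51604215 counts, of which the 40 genes took 0.215% to 0.282%. Correlations of log2 levels between replicates were 0.9702 to 0.9853 in MKN1 and 0.9876 to 0.9901 in AGS. The 10 epithelial and squamous markers summed to 6148 to 7680 counts scaled to the library total (CPM) in treated and 6055 to 7825 CPM in untreated MKN1 cells, and to 4367 to 4984 CPM in treated and 4722 to 5808 CPM in untreated AGS cells. KRT8 made up the largest part of these sums in both lines, with means of 3550 CPM in untreated MKN1 and 2373 CPM in untreated AGS cells. KRT5, KRT14 and TP63, which mark squamous epithelium, were detected mainly in MKN1, and KRT5 had 10 counts in all treated and 0 in all untreated AGS libraries together. EPCAM, CDH1, CLDN4 and CLDN7 went the other way. Their means were 21.8, 9.30, 12.6 and 10.0 CPM in untreated MKN1 and 429, 20.8, 225 and 259 CPM in untreated AGS cells. Of the 10 genes, 1 fell in MKN1 (10.0%, against 3.9% of all tested genes), the tight junction gene CLDN7 (-1.10 on the log2 scale, adjusted p = 0.00214). In AGS 1 rose, KRT5, which passed the filter through its MKN1 counts, and 1 fell, the keratin gene KRT19 (-0.74, adjusted p = 0.0044). The AGS calls were 10.0% each, against 9.21% and 11.6% of all tested genes. The 13 blood, endothelial and fibroblast markers in the table summed to 63.3 to 102 CPM in treated and 99.7 to 156 CPM in untreated MKN1 cells, and to 14.0 to 16.7 CPM in treated and 35.3 to 44.4 CPM in untreated AGS cells. In MKN1 the largest part was the fibroblast gene LUM, with means of 66.6 CPM in treated and 104 CPM in untreated cells. In AGS it was the fibroblast gene COL1A1, with means of 12.1 CPM in treated and 21.7 CPM in untreated cells. Haemoglobin transcripts were a smaller part: HBB had 3 counts in treated and 1520 in untreated AGS cells, and HBA1 had 0 in treated and 196 in untreated AGS cells. Of these 13 genes, 1 was at 0 in every treated and none in every untreated MKN1 library, and 4 were at 0 in every treated and 2 in every untreated AGS library. The leukocyte marker PTPRC had 4 counts in treated and 5 in untreated MKN1 cells, and 0 in treated and 38 in untreated AGS cells. Of the 11 of these genes that were tested, none passed in MKN1 (0 higher and 4 lower at an unadjusted p under 0.05, and 0 and 2 with DESeq2), and 2 rose and 4 fell in AGS (18.2% and 36.4%, against 9.21% and 11.6% of all tested genes). Their part in the results on PP1 genes was not tested.

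Stretches before the transcription starts of PPP1R10, PPP1R3F and PPP1R15A are shown because PPP1R10 and PPP1R3F carried the widest called differences in response between the lines and PPP1R15A encodes the stress-inducible eIF2 phosphatase subunit. They come from RefSeq promoters on build GRCh38.p14, read 5′ to 3′ on the gene's strand and hold no base that GENCODE release 29 annotates as exon. The PPP1R10 stretch lies within the annotated span of that gene, between its exons, and the other two lie before theirs. Capitals mark the letters TGACG (the core of a cyclic AMP response element), GGGCGG (a GC box), CCAAT and TATAAA, searched on both strands, and TGACGTCA in capitals holds TGACG once on each strand.
PPP1R10, chr6:30617245-30617493, minus strand: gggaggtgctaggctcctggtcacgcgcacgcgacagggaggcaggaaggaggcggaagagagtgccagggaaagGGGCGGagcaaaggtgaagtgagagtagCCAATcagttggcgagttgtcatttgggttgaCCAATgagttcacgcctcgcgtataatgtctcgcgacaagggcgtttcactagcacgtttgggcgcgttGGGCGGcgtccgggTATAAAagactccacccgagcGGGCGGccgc
PPP1R3F, chrX:49269543-49269792, plus strand: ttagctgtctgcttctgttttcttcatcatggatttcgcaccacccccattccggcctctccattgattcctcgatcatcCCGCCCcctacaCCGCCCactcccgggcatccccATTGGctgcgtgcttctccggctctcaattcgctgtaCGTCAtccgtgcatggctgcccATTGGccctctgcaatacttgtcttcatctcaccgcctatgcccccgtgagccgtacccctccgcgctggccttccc
PPP1R15A, chr19:48872171-48872391, plus strand: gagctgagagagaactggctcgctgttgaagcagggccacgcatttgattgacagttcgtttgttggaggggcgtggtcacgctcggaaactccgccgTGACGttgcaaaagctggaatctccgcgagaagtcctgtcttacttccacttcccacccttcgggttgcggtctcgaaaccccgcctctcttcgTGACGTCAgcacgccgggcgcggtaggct
The PPP1R10 stretch held 3 matches to GGGCGG, 2 to CCAAT and 1 to TATAAA. The PPP1R3F stretch held 2 matches to GGGCGG, 2 to CCAAT and 1 to TGACG, all on the other strand, so that the capitals there are the reverse complements. In the PPP1R15A stretch TGACG matched 3 times. That stretch holds only the first 221 of the 250 promoter bases. The promoter also has a TATAAA at position -30 from the start, which runs past the end of the stretch and is not marked. Of 35116 promoters of 250 bases in the table, 21.2% held TGACG, 42.6% GGGCGG, 32.0% CCAAT and 10.7% TATAAA. The 32 members with an entry had 42 promoters, of which 13 held TGACG, 26 GGGCGG, 17 CCAAT and 4 TATAAA. These matches are descriptions of letters only.

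The question of the treatment comparisons is how the RNA levels of the phosphatase's own subunits differ in cells exposed to an inhibitor of it. Levels below are CPM on the same TMM scale, given library by library for replicates 1, 2 and 3. Of the 40 members, 37 had enough counts to be tested, and a member counted as changed when its p-value, adjusted over all 20280 tested genes, was under 0.05 in edgeR's quasi-likelihood test of all 12 libraries. In MKN1, 3 members rose, 8.11% of those tested against 2.8% of all tested genes, and 0 fell against 3.9% of all tested genes. At an unadjusted p under 0.05, 7 members were higher and 2 lower in treated MKN1 cells, 24.3% of those tested against 23.4% of all tested genes. DESeq2 called 5 higher and 1 lower, 16.2% against 12.1%. The MKN1 counts varied with the libraries used: without MKN1 untreated replicate 2, 1 member and 1.6% of all tested genes were called, and without MKN1 untreated replicate 3, 7 members (18.9%) and 15.1% of all tested genes. In AGS, 3 members rose (8.11%, against 9.21% of all tested genes) and 6 fell (16.2%, against 11.6%). No member was called in the same direction in both lines, and 27 tested members were called in neither. Joint calls over all tested genes were not counted, so these counts have no share to be read against.

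Median log2 fold changes of the members lay near 0: -0.02 in MKN1 and 0.04 in AGS, beside 0.01 and -0.01 over all tested genes. The AGS median was 0.10 over the 32 members that had more than 5 counts in each group. The libraries of treated cells were all above or all below those of untreated cells for 11 members in MKN1 (29.7%, against 21.4% of all tested genes) and for 21 in AGS (56.8%, against 52.4%). These shares lie near those of all tested genes, apart from the higher calls in MKN1, which rest on 3 genes. The plot of fold changes by role shows the members that stood out.

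**Figure D1:**
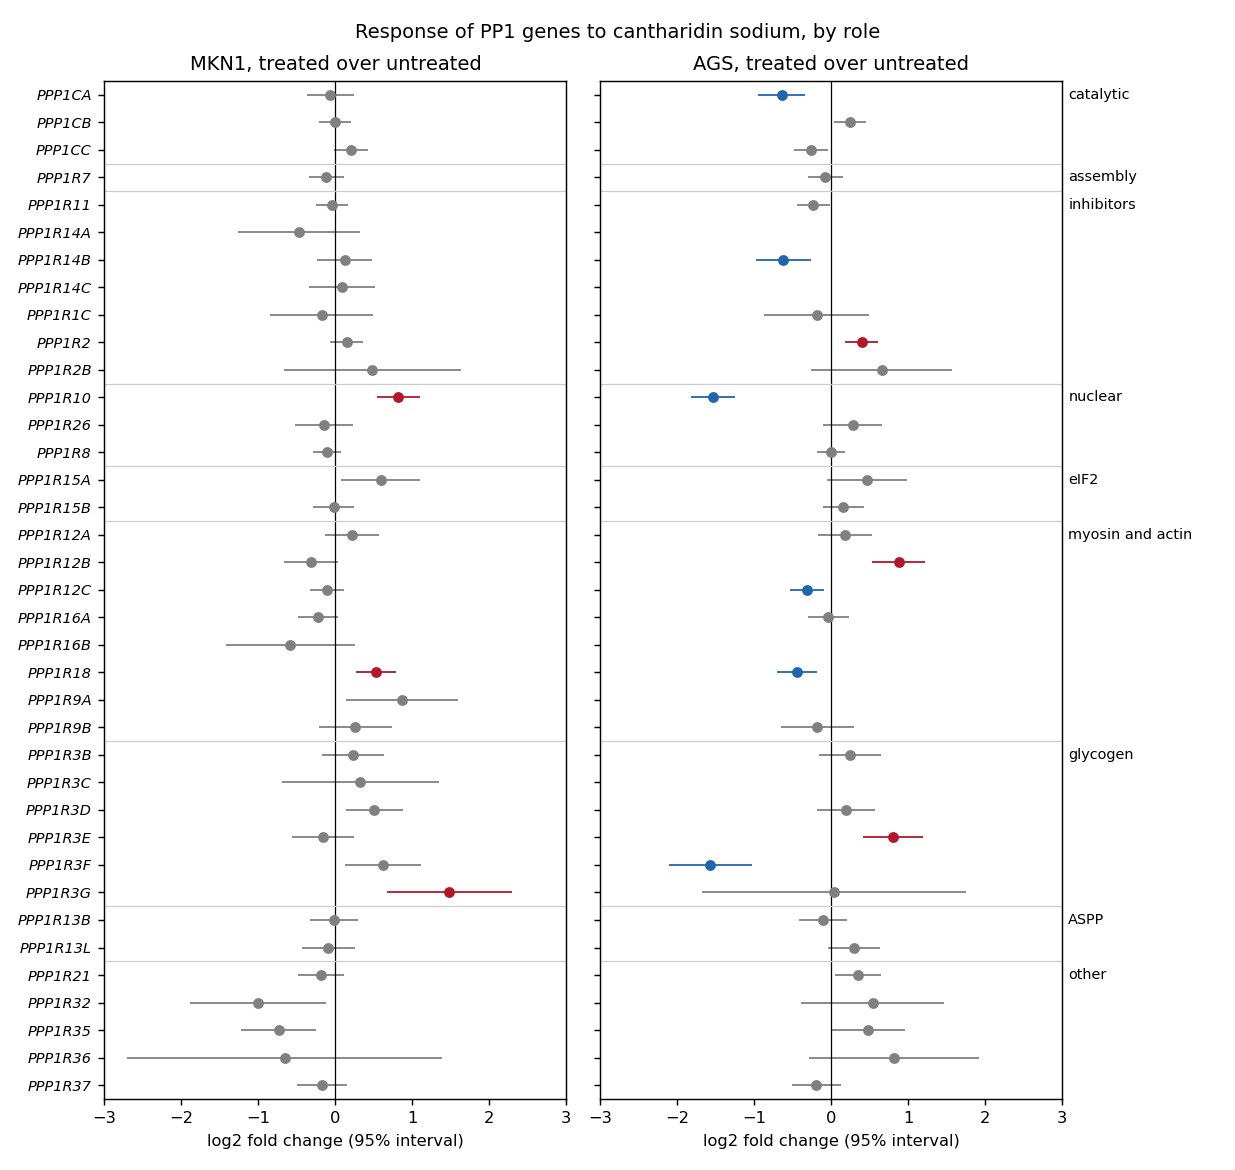
Log2 fold change (horizontal axis) of each tested PP1 gene in treated over untreated cells, MKN1 left and AGS right, with bars for the 95% interval of the fit. Red points rose and blue points fell at an adjusted p under 0.05, and grey points did not pass. Genes with at most 5 counts in an AGS group have no AGS point. PPP1R10 and PPP1R18 are red in MKN1 and blue in AGS.

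The 3 catalytic genes responded unevenly. PPP1CA (chromosome 11, 67398183 to 67421183 in GRCh38), which encodes the alpha isoform, had 99.6, 87.0 and 110.1 CPM in treated and 97.6, 122 and 90.8 CPM in untreated MKN1 cells. It had 116, 111 and 112 CPM in treated and 167, 153 and 207 CPM in untreated AGS cells. The MKN1 groups overlapped, whereas every treated AGS library lay below every untreated one. PPP1CA fell in AGS by 0.64 ± 0.14 on the log2 scale (SE; 1.56-fold lower, adjusted p = 0.00827), and the MKN1 value was -0.06 ± 0.14 (adjusted p = 0.83). The difference between the lines, 0.58 ± 0.20, did not pass in the main test (adjusted p = 0.0673) but did without MKN1 untreated replicate 2 (adjusted p = 0.0415), without MKN1 treated replicate 2 (0.0448) and with DESeq2 (0.0437). Of the exon bases of PPP1CA, 26.9% overlap neighbouring genes on the opposite strand, so part of its reads could belong to CARNS1, RAD9A or TBC1D10C.

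PPP1CB (chromosome 2, 28751640 to 28802940), the beta isoform that pairs with myosin-targeting subunits, had 358, 312 and 310.4 CPM in treated and 354, 317 and 314 CPM in untreated MKN1 cells. The AGS values were 280.5, 301 and 279 CPM in treated and 249, 235 and 241 CPM in untreated cells. The AGS groups separated upward, but the log2 fold change of 0.24 ± 0.10 did not pass (adjusted p = 0.0935). DESeq2 and a fit of AGS alone put it past the threshold (adjusted p = 0.0249 and 0.00668).

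PPP1CC (chromosome 12, 110719680 to 110742939), the gamma isoform, had 227, 202 and 204 CPM in treated and 200.2, 183 and 168 CPM in untreated MKN1 cells. AGS cells had 241, 262 and 278 CPM in treated and 308, 316 and 310.4 CPM in untreated cells. Its groups separated in opposite directions in the lines, with log2 fold changes of 0.20 ± 0.10 in MKN1 (adjusted p = 0.255) and -0.26 ± 0.10 in AGS (adjusted p = 0.0844). Neither line passed alone in this test, although AGS did with DESeq2 (adjusted p = 0.044) and in a fit of AGS alone (0.00823), while the difference, 0.46 ± 0.14, did (adjusted p = 0.045). That call was lost in 9 of the 12 fits that left out 1 library, with adjusted p up to 0.121. It was kept without MKN1 untreated replicate 1 or MKN1 treated replicate 2 or 3.

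Within AGS, PPP1CA alone of the 3 passed in the test of all 12 libraries. The shares of the 3 genes in all catalytic transcripts were compared as well, as counts per exon length. PPP1CA took 33.9%, 31.2% and 31.7% in treated and 41.3%, 39.5% and 46.8% in untreated AGS cells. PPP1CB took 38.6%, 39.9% and 37.3% in treated and 28.9%, 28.5% and 25.7% in untreated AGS cells. On this scale PPP1CB had the highest share in every treated and PPP1CA in every untreated AGS library, with no overlap between the groups for either gene. That order depends on the scaling by exon length: in plain counts PPP1CB led in treated AGS cells (44.0%, 44.7% and 41.7%) and PPP1CC in untreated ones (42.5%, 44.9% and 40.9%). PPP1CA was the lowest of the 3 in plain counts, at 18.2%, 16.5% and 16.7% in treated and 23.1%, 21.8% and 27.3% in untreated AGS cells. Mean shares per exon length differed by -10.3 percentage points for PPP1CA, 10.9 for PPP1CB and -0.614 for PPP1CC, with exact two-sided permutation p of 0.1, 0.1 and 0.8, and 3 against 3 libraries cannot give a p below 0.1.

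In MKN1 PPP1CB led with or without the drug, at 45.8% ± 2.06 of the catalytic transcripts in treated and 46.9% ± 2.91 in untreated cells (SD, n = 3 each). PPP1CA took 29.5% ± 2.84 in treated and 31.3% ± 3.76 in untreated MKN1 cells, and PPP1CC 24.7% ± 0.814 in treated and 21.8% ± 1.01 in untreated ones (SD, n = 3 each). The exact permutation p-values were 0.5 for PPP1CB, 0.5 for PPP1CA and 0.1 for PPP1CC, whose treated and untreated libraries did not overlap. Summed over the 3 genes, catalytic transcripts came to 124 ± 8.07 CPM per kilobase in treated and 122 ± 8.19 in untreated MKN1 cells, and to 129 ± 2.41 in treated and 152 ± 10.2 in untreated AGS cells (SD, n = 3 each).

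**Figure D2:**
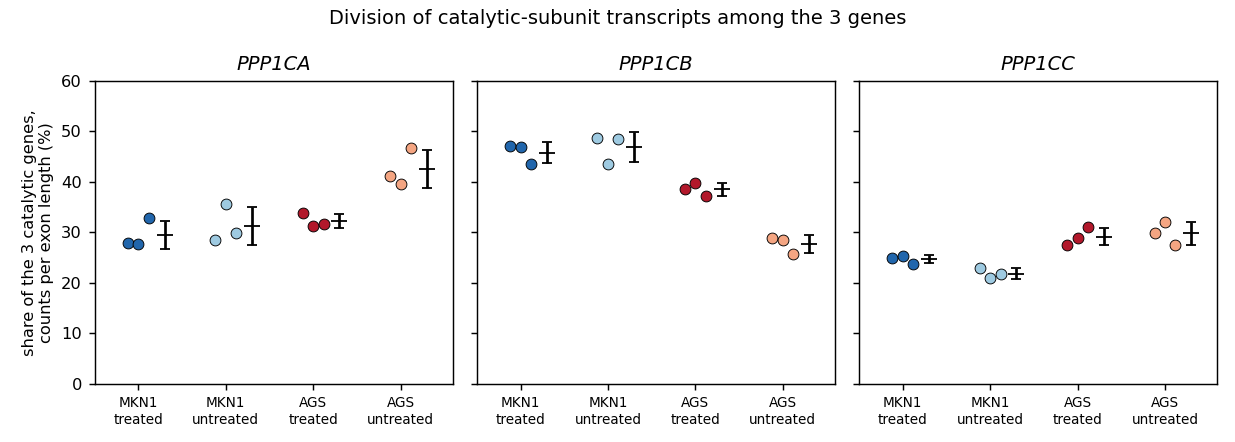
Share of each catalytic gene in the summed catalytic transcripts (percent, counts per exon length), with a point for each library and bars for mean and SD of a group. In AGS the PPP1CA points of treated cells (31.2% to 33.9%) sit below those of untreated cells and the PPP1CB points above, while the MKN1 points of both genes overlap.

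PPP1R7 (SDS22), which binds newly made catalytic subunits during their maturation, had 53.2, 52.2 and 53.9 CPM in treated and 54.7, 54.6 and 63.4 CPM in untreated MKN1 cells. Its AGS levels were 41.9, 38.0 and 40.0 CPM in treated and 40.6, 38.6 and 47.1 CPM in untreated cells. Its log2 fold changes of -0.12 ± 0.11 in MKN1 and -0.08 ± 0.11 in AGS did not pass (adjusted p = 0.547 and 0.649). Of the exon bases of PPP1R7, 17.4% overlap PASK on the opposite strand.

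Among the inhibitors, 7 of 9 were tested, and 1 rose, 1 fell and 5 did not pass in AGS. The 2 calls were 14.3% each, against 9.21% higher and 11.6% lower among all tested genes. None of the 7 passed in MKN1, where 2.8% of all tested genes rose and 3.9% fell. PPP1R2 (inhibitor-2, chromosome 3, 195514425 to 195543386) had 372, 372 and 363 CPM in treated and 270.3, 291 and 279 CPM in untreated AGS cells. The MKN1 values were 62.1, 73.4 and 73.5 CPM in treated and 67.6, 61.4 and 59.8 CPM in untreated cells. All treated AGS libraries stood above the untreated ones, and PPP1R2 rose by 0.40 ± 0.10 on the log2 scale in AGS (1.32-fold, adjusted p = 0.0142), against 0.15 ± 0.10 in MKN1 (adjusted p = 0.4). The call needed 3 libraries of this line: leaving out treated replicate 2 gave an adjusted p of 0.0528, untreated replicate 1 gave 0.0652 and untreated replicate 3 gave 0.0574. The difference between the lines was -0.25 ± 0.14 and did not pass (adjusted p = 0.245).

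PPP1R14B (PHI-1, chromosome 11, 64244480 to 64246941), a phosphorylation-dependent inhibitor of PP1, had 46.9, 42.8 and 43.5 CPM in treated and 62.9, 64.7 and 77.1 CPM in untreated AGS cells. MKN1 cells had 99.6, 83.9 and 127 CPM in treated and 75.2, 101 and 109 CPM in untreated cells. It fell in AGS by 0.62 ± 0.16 on the log2 scale (1.54-fold lower, adjusted p = 0.0194), with no overlap, whereas the MKN1 groups overlapped (0.12 ± 0.16, adjusted p = 0.712). The difference of 0.74 ± 0.23 passed narrowly (adjusted p = 0.0474) and was lost in 10 of 12 leave-one-out fits, all but those without MKN1 untreated replicate 3 or MKN1 treated replicate 2. The AGS call itself was lost on leaving out treated replicate 2 (adjusted p = 0.0712), treated replicate 3 (0.0653) or untreated replicate 3 (0.0872) of that line. Processed pseudogenes of PPP1R14B and PPP1R2 exist, so reads could be split between copies.

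PPP1R11 (inhibitor-3) had 115, 104 and 129 CPM in treated and 113, 123 and 122 CPM in untreated MKN1 cells, and 61.0, 58.3 and 59.2 CPM in treated and 70.7, 67.5 and 71.1 CPM in untreated AGS cells. Its AGS groups separated downward at a log2 fold change of -0.23 ± 0.10, which did not pass (adjusted p = 0.117) except in a fit of AGS alone (0.00728). PPP1R14A (CPI-17) and PPP1R14C (KEPI) gave at most 2 counts in any AGS group and did not pass in MKN1. PPP1R1B (DARPP-32) and PPP1R14D stayed under the filter, with at most 0.295 CPM in a library.

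Among the nuclear subunits was the widest called difference in response between the lines. PPP1R10 (chromosome 6, 30600400 to 30618612), known as PNUTS, brings PP1 to chromatin and to RNA polymerase II. It had 77.6, 101 and 109 CPM in treated and 56.8, 58.0 and 48.3 CPM in untreated MKN1 cells. In AGS it had 54.0, 57.0 and 58.3 CPM in treated and 177, 150.0 and 166 CPM in untreated cells. The groups did not overlap in either line and lay on opposite sides: PPP1R10 rose in MKN1 by 0.82 ± 0.13 on the log2 scale (1.76-fold, adjusted p = 0.00557) and fell in AGS by 1.54 ± 0.13 (2.91-fold lower, adjusted p = 5.25e-05). The responses differed by 2.36 ± 0.19 (95% interval 1.95 to 2.76, adjusted p = 2.61e-05).

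Each of the 12 leave-one-out fits kept the PPP1R10 calls in MKN1, in AGS and in the difference. A fit of MKN1 alone, where few genes passed at all, gave an MKN1 change of the same size (0.82, adjusted p = 0.0702). Treated MKN1 cells averaged 95.7 ± 16.2 CPM, still below the 164 ± 13.4 CPM of untreated AGS cells (SD, n = 3 each), and treated AGS cells averaged 56.4 ± 2.20 CPM, beside 54.4 ± 5.26 CPM in untreated MKN1 cells. PPP1R10 shares no exon bases with another annotated gene.

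PPP1R8 (NIPP1), a nuclear inhibitor found at splicing factors, had 76.2, 70.9 and 77.1 CPM in treated and 82.0, 82.4 and 78.1 CPM in untreated MKN1 cells, and 72.4, 68.4 and 71.5 CPM in treated and 71.1, 69.1 and 72.4 CPM in untreated AGS cells. Its log2 fold change was -0.11 ± 0.08 in MKN1 (adjusted p = 0.46) and -0.0021 in AGS with a 95% interval of -0.19 to 0.18 (adjusted p = 0.989). PPP1R26, a nucleolar subunit, did not pass in either line, and its MKN1 untreated replicate 3 stood at 161 CPM beside 91.3 and 95.1 CPM in the other two.

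PPP1R15A and PPP1R15B direct PP1 to phosphorylated eIF2, and PPP1R15A (GADD34) is the member made under stress. PPP1R15A (chromosome 19, 48872392 to 48876057) had 247, 613 and 536 CPM in treated and 289.5, 317 and 324 CPM in untreated MKN1 cells. The AGS values were 428, 478 and 409.9 CPM in treated and 294, 339 and 320.4 CPM in untreated cells. A pair of treated MKN1 libraries stood well above all untreated ones while replicate 1 stood below them, and in AGS all treated libraries were higher. The log2 fold changes, 0.59 ± 0.24 in MKN1 and 0.47 ± 0.24 in AGS, did not pass (adjusted p = 0.159 and 0.184).

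The MKN1 value and the adjusted p of both lines moved with MKN1 treated replicate 1. Without it PPP1R15A rose by 0.89 in MKN1 (adjusted p = 0.00306), and by 0.46 in AGS (adjusted p = 0.0125), close to the AGS value with all libraries. The MKN1 value was 0.34 without MKN1 treated replicate 2 (adjusted p = 0.472) and 0.47 without MKN1 treated replicate 3 (0.314), neither of which passed. A fit of AGS alone gave 0.46 (adjusted p = 0.00111). PPP1R15B (CReP), the constitutive partner, had 139, 193 and 164 CPM in treated and 185, 159 and 158 CPM in untreated MKN1 cells. AGS cells had 237, 239 and 244 CPM in treated and 229, 219 and 198 CPM in untreated cells, with log2 fold changes of -0.02 ± 0.12 in MKN1 and 0.16 ± 0.12 in AGS that did not pass (adjusted p = 0.94 and 0.387).

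**Figure D3:**
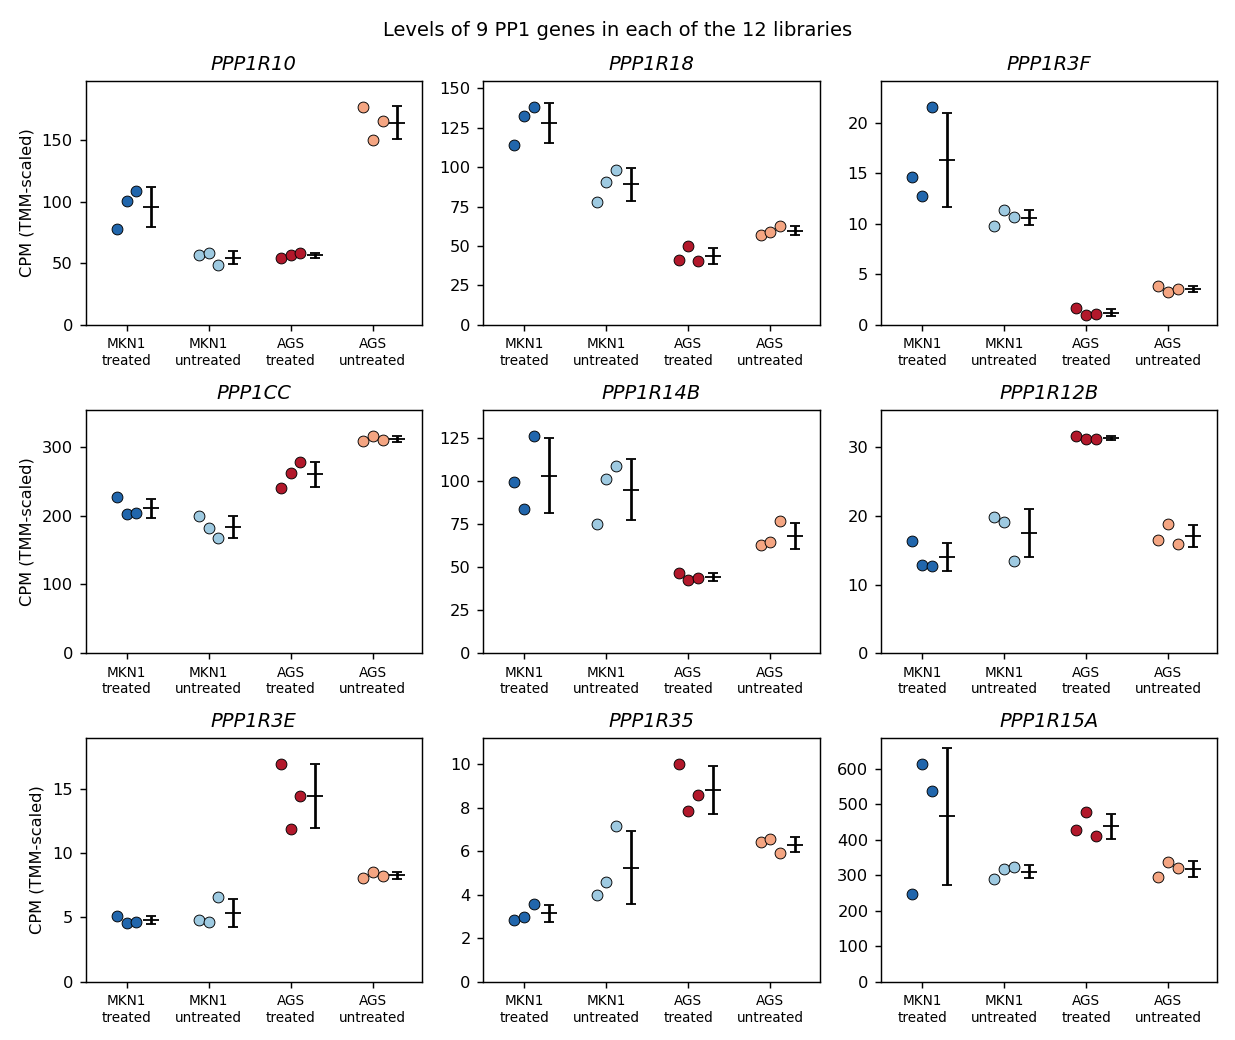
CPM scaled by TMM (vertical axes from 0) of 9 PP1 genes in every library, with black bars for mean and SD of each group of 3. PPP1R10, PPP1R18, PPP1R3F and PPP1CC are higher in treated MKN1 and lower in treated AGS cells than in untreated ones, and PPP1R15A has 1 treated MKN1 library at 247 CPM beside 613 and 536 CPM.

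Of the 8 myosin- and actin-directed subunits, 1 rose and 2 fell in AGS (12.5% and 25.0%, against 9.21% and 11.6% of all tested genes). In MKN1 1 rose (12.5%, against 2.8%). With 8 genes each of these shares rests on 1 or 2 calls. PPP1R12A (MYPT1), the widely expressed myosin-targeting subunit, had 85.9, 91.8 and 58.4 CPM in treated and 79.9, 67.7 and 56.0 CPM in untreated MKN1 cells. Its AGS levels were 87.7, 96.1 and 92.1 CPM in treated and 84.6, 84.0 and 75.8 CPM in untreated cells. The log2 fold changes of 0.21 ± 0.16 and 0.17 ± 0.16 did not pass (adjusted p = 0.464 in MKN1 and 0.471 in AGS; 0.0476 in AGS fitted alone).

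PPP1R12B (MYPT2, chromosome 1, 202348699 to 202592706), its relative of striated muscle, had 31.7, 31.2 and 31.2 CPM in treated and 16.5, 18.8 and 15.8 CPM in untreated AGS cells. In MKN1 it had 16.4, 12.9 and 12.7 CPM in treated and 19.8, 19.0 and 13.4 CPM in untreated cells. PPP1R12B rose in AGS by 0.88 ± 0.16 on the log2 scale (1.84-fold, adjusted p = 0.00325), with no overlap, and the MKN1 value was -0.32 ± 0.16 (adjusted p = 0.258). The difference of -1.19 ± 0.23 passed (adjusted p = 0.00456), and each of the 12 leave-one-out fits kept this call and the AGS call. Of its exon bases, 10.9% overlap SYT2 or a non-coding gene.

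PPP1R12C (MBS85), the third of these myosin-binding subunits, had 82.9, 74.6 and 77.9 CPM in treated and 95.7, 95.4 and 101 CPM in untreated AGS cells, and 41.5, 44.1 and 49.9 CPM in treated and 47.2, 52.7 and 45.8 CPM in untreated MKN1 cells. It fell in AGS by 0.31 ± 0.10 on the log2 scale (adjusted p = 0.0447), the highest adjusted p among the AGS calls. It was lost under DESeq2 size factors (0.0526), with no filter (0.0754) and in 8 of 12 leave-one-out fits. These were the fits without any 1 of the 6 AGS libraries or without MKN1 untreated replicate 1 or 2, with adjusted p from 0.0504 to 0.153.

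PPP1R18 (phostensin, chromosome 6, 30676389 to 30687895), which ties PP1 to actin filaments, had 114, 133 and 138 CPM in treated and 78.0, 90.8 and 98.3 CPM in untreated MKN1 cells. In AGS it had 41.3, 49.7 and 40.6 CPM in treated and 57.2, 59.1 and 62.6 CPM in untreated cells. Like PPP1R10 it separated upward in MKN1 and downward in AGS, rising by 0.53 ± 0.12 (1.44-fold, adjusted p = 0.0249) in the first line. In AGS it fell by 0.44 ± 0.12 on the log2 scale (1.36-fold lower, adjusted p = 0.0223). The difference of 0.97 ± 0.17 passed (adjusted p = 0.00308) and was kept in each of the 12 leave-one-out fits.

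The calls of PPP1R18 within a line were less firm. The MKN1 call was lost without MKN1 untreated replicate 1 or 2 or MKN1 treated replicate 2 or 3 (adjusted p = 0.0524 to 0.106), with no filter (0.0512) and with MKN1 alone (0.153). The AGS call was lost on leaving out treated replicate 1 or 3 or untreated replicate 2 or 3 of that line (adjusted p = 0.0559 to 0.0938). The other members of this group did not pass: PPP1R9B (spinophilin) had log2 fold changes of 0.26 ± 0.22 in MKN1 and -0.18 ± 0.22 in AGS, and PPP1R16A (MYPT3) -0.22 ± 0.12 in MKN1 and -0.04 ± 0.12 in AGS. Of the exon bases of PPP1R16A, 52.6% overlap a gene on the opposite strand.

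Of the 6 glycogen-targeting subunits, which hold PP1 at glycogen and bring it to glycogen synthase and phosphorylase, 1 rose and 1 fell in AGS and 1 rose in MKN1. Each of these calls was 16.7% of the 6. Among all tested genes 9.21% rose and 11.6% fell in AGS, and 2.8% rose in MKN1. PPP1R3F (chromosome X, 49269843 to 49301461) had 1.64, 0.929 and 1.06 CPM in treated and 3.88, 3.29 and 3.57 CPM in untreated AGS cells. The MKN1 values were 14.6, 12.8 and 21.5 CPM in treated and 9.79, 11.3 and 10.7 CPM in untreated cells. It fell in AGS by 1.57 ± 0.25 on the log2 scale (2.96-fold lower, adjusted p = 0.00172), and in MKN1 its groups separated upward at 0.62 ± 0.23 without passing (adjusted p = 0.119). The difference of 2.19 ± 0.34 passed (adjusted p = 0.00157), and all 12 leave-one-out fits kept it and the AGS call.

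PPP1R3E (chromosome 14, 23295643 to 23302848) went the other way, with 16.9, 11.9 and 14.5 CPM in treated and 8.04, 8.51 and 8.21 CPM in untreated AGS cells. MKN1 cells had 5.13, 4.53 and 4.66 CPM in treated and 4.83, 4.63 and 6.56 CPM in untreated cells. It rose in AGS by 0.80 ± 0.18 on the log2 scale (1.75-fold, adjusted p = 0.00928), in all leave-one-out fits, and the MKN1 value was -0.16 ± 0.19 (adjusted p = 0.644). The difference of -0.97 ± 0.26 (adjusted p = 0.0245) was lost on leaving out replicate 1 or 3 of treated or of untreated AGS cells (adjusted p = 0.0543 to 0.0683). Of its exon bases, 7.37% are shared with neighbours such as BCL2L2 and HOMEZ.

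PPP1R3G (chromosome 6, 5084581 to 5089487) had 2.67, 2.17 and 4.48 CPM in treated and 0.680, 1.02 and 1.62 CPM in untreated MKN1 cells, and at most 0.122 CPM in any AGS library. It rose in MKN1 by 1.48 ± 0.38 on the log2 scale (2.79-fold, adjusted p = 0.0361). This low-count call was kept in only 4 of 12 leave-one-out fits, those without AGS treated replicate 1 or 3, MKN1 untreated replicate 3 or MKN1 treated replicate 2. In the 8 others the adjusted p was 0.0524 to 0.148. PPP1R3D (R6) had 19.8, 14.9 and 16.3 CPM in treated and 10.1, 11.5 and 14.3 CPM in untreated MKN1 cells and separated upward without passing (0.51 ± 0.17, adjusted p = 0.0946). PPP1R3B and PPP1R3C did not pass in either line.

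Neither ASPP protein passed in either line, PPP1R13L (iASPP, an inhibitor of p53) having 92.0, 116 and 89.4 CPM in treated and 69.6, 80.1 and 92.8 CPM in untreated AGS cells. Of the remaining members, PPP1R35 (chromosome 7, 100435282 to 100436565), a centriole elongation factor, had 2.85, 2.99 and 3.58 CPM in treated and 3.98, 4.60 and 7.14 CPM in untreated MKN1 cells. The AGS values were 10.0, 7.85 and 8.59 CPM in treated and 6.44, 6.57 and 5.90 CPM in untreated cells. The groups separated downward in MKN1 (-0.74 ± 0.23, adjusted p = 0.0694) and upward in AGS (0.48 ± 0.22, adjusted p = 0.138), and the difference of -1.22 ± 0.32 passed (adjusted p = 0.0208). It was lost without AGS untreated replicate 3, AGS treated replicate 1 or MKN1 treated replicate 1 (adjusted p = 0.0503 to 0.0539), and 41.0% of its exon bases overlap non-coding genes.

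In the test of the difference itself, 5 members responded more positively in MKN1 than in AGS (13.5%, against 8.38% of all tested genes) and 3 more negatively (8.11%, against 7.3%). The first were PPP1R10, PPP1R3F, PPP1R18, PPP1R14B and PPP1CC, and the second PPP1R12B, PPP1R35 and PPP1R3E. PPP1R10 and PPP1R18 were the 2 members called in both lines, and both were called in opposite directions. The MKN1 call and the AGS call of PPP1R18 were each lost in 4 of 12 leave-one-out fits. How many of all tested genes were called in opposite directions was not counted.

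Changes in treated AGS cells followed the base composition of transcripts. When tested genes were split into 5 equal classes by the GC content of their longest transcript, the median log2 fold change in AGS from the lowest to the highest class was 0.18, 0.09, 0.0008, -0.13 and -0.29. In MKN1 it was 0.05 in the lowest and -0.09 in the highest class. Of the 6 members that fell in AGS, 5 (PPP1CA, PPP1R3F, PPP1R14B, PPP1R18 and PPP1R12C) were in the highest class, with GC contents of 61.0% to 68.0%. That class held 14 of the 37 tested members, of which 35.7% fell, against 22.7% of all 4042 genes in it. Another 5 of the 14 had positive values that did not pass, among them PPP1R13L (0.30), PPP1R15A (0.47) and PPP1R35 (0.48). Relative to the median of that class their changes were -0.35 for PPP1CA, -1.28 for PPP1R3F, -0.33 for PPP1R14B, -0.16 for PPP1R18 and -0.02 for PPP1R12C. PPP1R10, in the class below at 54.2% GC, stood -1.41 from its median, PPP1R12B 0.88 and PPP1R3E 0.93 from theirs, and PPP1R2, in the lowest class, 0.21. The part of base composition in these results was not tested.

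The untreated lines differed far more than treated from untreated cells did. Of the 37 tested members, 16 were higher in untreated MKN1 than in untreated AGS cells (43.2%, against 34.9% of all tested genes) and 12 lower (32.4%, against 31.4%). These values share the untreated libraries with the treatment comparisons. The 16 include the 5 members close to absent from AGS, which passed the filter only through their MKN1 counts. PPP1R3G, also among the 16, passed only through MKN1 as well, and PPP1R36, among the 12, only through AGS. The direction of all these members was nearly fixed in advance, and neither share was recomputed without such genes. The median log2 ratio of the members was 0.19, and -0.03 without the 5 members that were close to absent from AGS, beside 0.04 over all tested genes. PPP1R3G and PPP1R36 were kept in the median of -0.03.

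Several regulatory subunits were expressed in MKN1 and close to absent from AGS. PPP1R14C, the KEPI inhibitor, had 52.3, 49.4 and 49.9 CPM in untreated MKN1 cells and 2 counts in all untreated AGS libraries together, a ratio of 3152 with a 95% counting interval of 872 to 26032. PPP1R9A, or neurabin-1, a scaffold of PP1 and actin, had 5.91, 4.96 and 10.2 CPM in untreated MKN1 and 0 counts in untreated AGS cells, at least 299-fold higher against a floor of 3 counts over the group. PPP1R16B (TIMAP), a membrane-bound subunit of endothelial cells, had 2.41, 2.92 and 3.34 CPM in untreated MKN1 cells and 1 count in untreated AGS cells, a ratio of 362 (64.5 to 14372).

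PPP1R14A, the CPI-17 inhibitor of myosin phosphatase, had 3.43, 5.76 and 6.19 CPM in untreated MKN1 cells and 2 counts in untreated AGS cells, a ratio of 321 (88.5 to 2662). PPP1R3C, the glycogen scaffold PTG, had 4.42, 3.90 and 9.53 CPM in untreated MKN1 cells and 5 counts in untreated AGS cells, a ratio of 153 (65.1 to 472). These 5 genes, which entered the test only through their MKN1 counts, all passed it (adjusted p = 9.21e-11 to 5.92e-06). The untreated AGS counts of PPP1R3C, PPP1R14A, PPP1R14C and PPP1R16B each lay in a single library: replicate 1 for PPP1R3C, replicate 2 for PPP1R14C and replicate 3 for PPP1R14A and PPP1R16B. Each call was kept without that library, but the ratio then has 0 counts below it, and the fitted value depends on that 1 library. The fitted log2 ratio of PPP1R3C was 7.13 with AGS untreated replicate 1 and 10.66 without it, and that of PPP1R14C 11.33 with AGS untreated replicate 2 and 13.80 without it. AGS untreated replicate 3 moved PPP1R14A to 10.49 when left out, against 8.03 with it, and PPP1R16B to 9.66, against 7.97. PPP1R3G followed at a log2 ratio of 4.05 ± 0.54 (adjusted p = 1.59e-05), then PPP1R3F at 1.57 ± 0.24 (6e-05) and PPP1R32 at 1.57 ± 0.42 (0.00468). PPP1R3G, with 8 counts in all untreated AGS libraries together, also entered the test only through its MKN1 counts. Of the exon bases of PPP1R32, 26.1% are shared with a gene on the same strand.

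In the other direction, PPP1R36 had 0.204, 0.219 and 0.0613 CPM in untreated MKN1 and 1.95, 1.57 and 1.72 CPM in untreated AGS cells (log2 ratio -3.44 ± 0.68, adjusted p = 0.000547). It had 14 counts in all untreated MKN1 libraries together and entered the test only through its AGS counts. Its direction was therefore nearly fixed in advance. PPP1R2 stood at 62.9 ± 4.12 CPM in untreated MKN1 and 280.3 ± 10.5 CPM in untreated AGS cells (SD, n = 3 each; -2.16 ± 0.10, 4.45-fold lower, adjusted p = 1.12e-09). Its retrocopy PPP1R2B was lower as well (-2.13 ± 0.49, adjusted p = 0.00182), although reads of PPP1R2 and PPP1R2B could be split between the near-identical copies. Further members lower in MKN1 were PPP1R13L (-1.86 ± 0.16), PPP1R10 (-1.59 ± 0.13), PPP1R37 (-1.57 ± 0.15), PPP1R12C (-1.0 ± 0.10) and PPP1R3B (-0.81 ± 0.19), with adjusted p from 2.28e-07 to 0.00186. All 16 of these line differences passed in each of the 12 leave-one-out fits. That adds nothing for PPP1R14C, PPP1R9A, PPP1R16B, PPP1R14A, PPP1R3C, PPP1R3G and PPP1R36, which passed the filter through a single line. Leaving out a library does not undo that selection.

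All 3 catalytic genes differed between the lines: PPP1CA and PPP1CC were lower in untreated MKN1 (-0.77 ± 0.14 and -0.76 ± 0.10 on the log2 scale, adjusted p = 0.000342 and 2.02e-05) and PPP1CB higher (0.44 ± 0.10, adjusted p = 0.00134). Per length, the untreated levels in CPM per kilobase of exon were 57.1 ± 3.88 for PPP1CB, 38.2 ± 6.04 for PPP1CA and 26.6 ± 2.33 for PPP1CC in MKN1. In AGS they were 42.0 ± 1.27 for PPP1CB, 64.9 ± 10.2 for PPP1CA and 45.1 ± 0.622 for PPP1CC (SD, n = 3 each). On the same scale PPP1R15A was the highest of all members, at 100.3 ± 5.91 in untreated MKN1 and 103 ± 7.28 in untreated AGS cells.

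**Figure D4:**
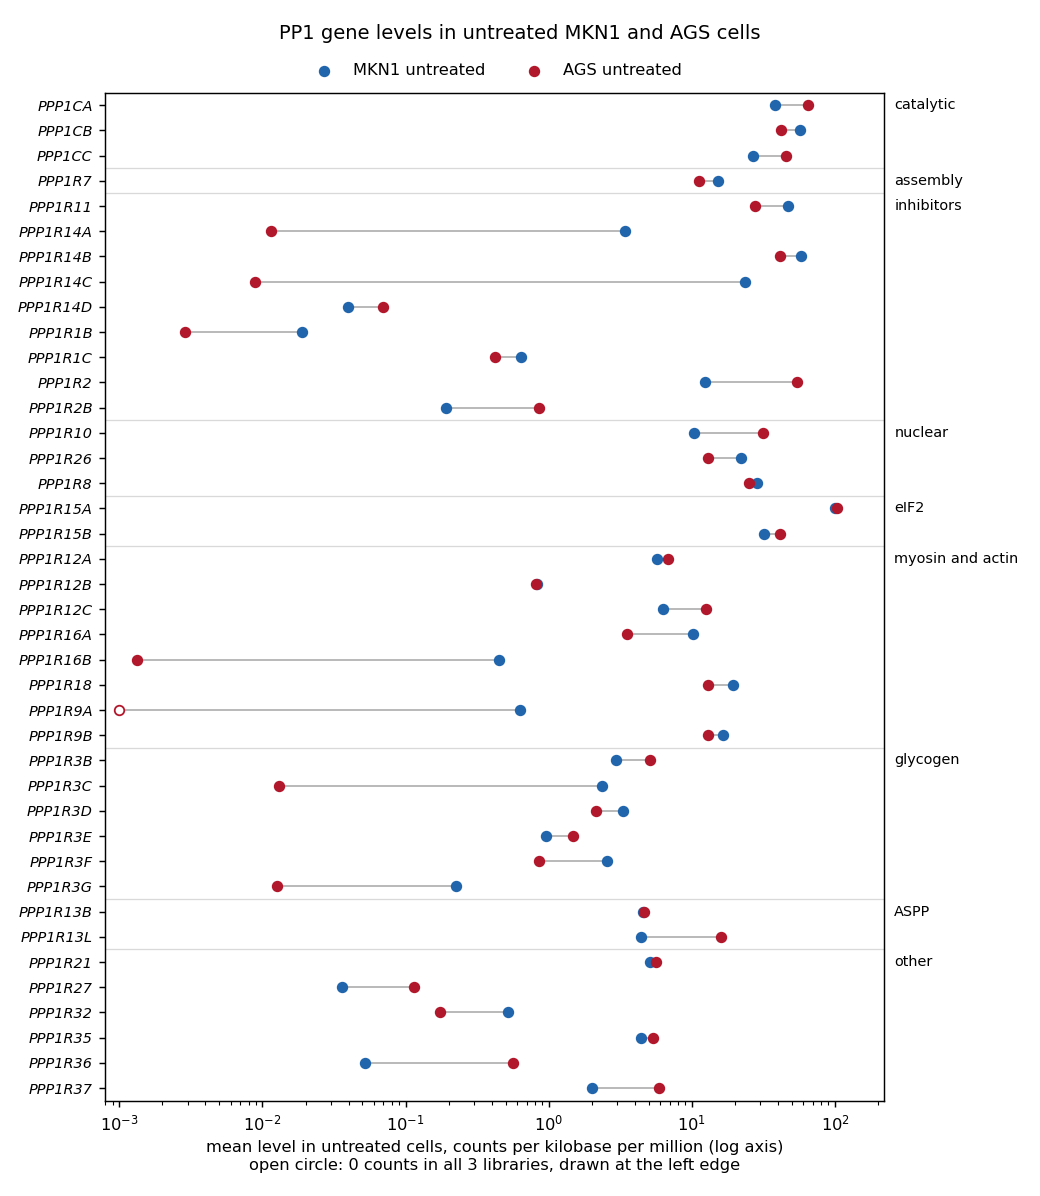
Mean level in untreated cells of all 40 PP1 genes by role, in CPM per kilobase of exon on a log axis, MKN1 in blue and AGS in red. PPP1R14C, PPP1R14A, PPP1R9A, PPP1R16B and PPP1R3C have blue points far to the right of red ones, and the open circle of PPP1R9A marks 0 counts.

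Genes of the processes that PP1 acts on, outside its own name family, were counted beside the members. Their shares are to be read against all tested genes, of which 2.8% rose and 3.9% fell in MKN1 and 9.21% rose and 11.6% fell in AGS. Of 40 PP1-binding proteins with other names, 2 rose and 1 fell in MKN1 (5.0% and 2.5%) and 4 rose and 5 fell in AGS (10.0% and 12.5%), with median log2 fold changes of 0.02 and -0.01. SPRED1, a brake on RAS signalling, rose in both lines (0.48 ± 0.09 in MKN1, adjusted p = 0.0109, and 0.63 ± 0.09 in AGS, adjusted p = 0.0008). NOM1, a nucleolar protein, fell in MKN1 (-0.55 ± 0.13, adjusted p = 0.0277) and rose in AGS (0.43 ± 0.13, adjusted p = 0.0344). HCFC1, a chromatin cofactor, fell in AGS (-1.20 ± 0.20, adjusted p = 0.00192).

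Of 19 glycogen metabolism genes tested, 2 rose and 4 fell in AGS (10.5% and 21.1%). None passed in MKN1, where 3 were higher and 1 lower at an unadjusted p under 0.05 and DESeq2 called 1 higher and 1 lower. PYGM, muscle glycogen phosphorylase, and GYS1, muscle glycogen synthase, fell in AGS, with log2 fold changes of -2.37 ± 0.46 and -0.59 ± 0.13 (adjusted p = 0.00434 and 0.0081). Of 20 genes of myosin light chain phosphorylation, 1 rose and 2 fell in MKN1 (5.0% and 10.0%) and 4 rose and 4 fell in AGS (20.0% each). The kinase gene CDC42BPB fell in MKN1 (-0.42 ± 0.09, adjusted p = 0.0203) and rose in AGS (0.38 ± 0.09, adjusted p = 0.0128). The light chain gene MYL6 fell in AGS (-1.14 ± 0.19, adjusted p = 0.00197).

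Of 16 genes of eIF2 phosphorylation, none passed in MKN1, where 1 was higher and 1 lower at an unadjusted p under 0.05 and DESeq2 called 1 lower. In AGS 2 rose and 1 fell (12.5% and 6.25%), and IMPACT, an inhibitor of the eIF2 kinase GCN2, rose by 0.97 ± 0.16 (adjusted p = 0.00204). EIF2B4, a subunit of the eIF2 exchange factor, fell by 0.39 ± 0.12 there (adjusted p = 0.0389). Among 7 catalytic and scaffold genes of PP2A, PP4, PP5 and PP6, none passed in MKN1, where 1 was lower at an unadjusted p under 0.05 and also with DESeq2. In AGS 2 fell (28.6%), the PP2A scaffold gene PPP2R1A (-0.70 ± 0.16, adjusted p = 0.00957) and PPP4C (-0.47 ± 0.13, adjusted p = 0.0238). Their summed level was 962 to 1029 CPM in treated and 943 to 1072 CPM in untreated MKN1 cells, which overlap, and 1151 to 1172 CPM in treated and 1341 to 1534 CPM in untreated AGS cells, which do not.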

How the data were processed

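Bulk RNA-seq of 12 libraries was read as 1 table of raw gene counts, as deposited. Reads were aligned with HISAT2 2.0.4 to hg38/GRCh38, per the submitters' processing notes. The sources used here name no counting tool and do not say how strand was used, and the library kit named in the labels does not mark strand. Totals were 28604966 to 51604215 counts per library, and no 2 replicates agreed within sampling noise. Nothing in the labels used here says that replicates came from separate cultures, so p-values measure the spread between these libraries.

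Symbols and exon lengths came from GENCODE release 29. Counts were TMM-scaled, filtered with filterByExpr and fitted in edgeR 4.0.16 (R 4.3.3) by the quasi-likelihood test over all 12 libraries with 1 mean per group, giving 8 residual degrees of freedom. Contrasts were treated against untreated in each line, the difference of the 2 effects (MKN1 minus AGS), and untreated MKN1 against untreated AGS, with Benjamini-Hochberg adjustment over 20280 genes at 0.05. Fold changes are log2 with standard errors, and intervals of count ratios cover counting error only. The script was tested on simulated data. Alternatives were DESeq2 1.42.0, its size factors, other filters, a replicate block, fits of the compared groups alone and leaving out each library.

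Named members are 10 set genes, all members past the threshold for a treatment effect or its difference, and the 8 highest and 8 lowest line ratios past it, with the 2 genes of smallest adjusted p in each outside list. PPP1R3D, PPP1R9B, PPP1R13L, PPP1R15B, PPP1R16A and PPP1R26 were named after their values were seen, as were NOM1 and CDC42BPB in AGS. Results for 2 genes of myosin light chain phosphorylation are not reported here. Members and lists were chosen with earlier results of these data known.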

Additional observations from a re-analysis of the deposited data

Results flagged for a closer look

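The response to cantharidin sodium differed between the lines for 8 PP1 genes in edgeR's test of the difference itself (MKN1 effect minus AGS effect, log2 scale, 3 libraries per group). The 8 were 21.6% of the 37 tested members. A positive difference was called for 13.5% of them, against 8.38% of all tested genes, and a negative one for 8.11%, against 7.3%. The difference was 2.36 for PPP1R10, 2.19 for PPP1R3F and 0.97 for PPP1R18, all 3 higher in treated MKN1 and lower in treated AGS libraries without overlap. It was 0.74 for PPP1R14B and 0.46 for PPP1CC, both of which lost the call in most leave-one-out fits. It was -1.19 for PPP1R12B, -1.22 for PPP1R35 and -0.97 for PPP1R3E, which were higher in all treated AGS libraries than in all untreated ones.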

How the results depend on the processing

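In AGS 9 members were called (24.3%, against 20.8% of all tested genes). A fit of AGS alone called 18 of the 31 tested (58.1%), where 48.2% of all genes tested were called. With 1 library left out, 5 to 12 members were called (13.5% to 32.4%), beside 9.85% to 26.4% of all tested genes. In MKN1 3 were called (8.11%, against 6.7% of all tested genes), 1 with no filter (2.5%, against 2.51%) and 6 with DESeq2 (16.2%, against 12.1%). A fit of MKN1 alone called 0, where 0.184% of all genes tested were called (6 members higher and 2 lower at an unadjusted p under 0.05). Leaving out 1 library gave 1 to 7 members (2.7% to 18.9%), beside 1.6% to 15.1% of all tested genes. The highest, 7, came without MKN1 untreated replicate 3, and the lowest without MKN1 untreated replicate 2 or MKN1 treated replicate 3. The difference had 8 calls (4 to 11), and the line comparison 28 (25 to 29). In the main fit these were 21.6% and 75.7% of the 37 tested members, beside 3180 and 13452 of all 20280 tested genes. With 1 library left out, 2098 to 4643 of all tested genes were called for the difference and 12432 to 13875 between the lines. The PPP1CA share changed by -1.79 points in MKN1 (-3.43 to 0.34 over the libraries left out, positive only without untreated replicate 2) and by -10.3 in AGS (-6.93 with plain counts).

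Sign changes were limited to values near 0 that passed in no setting. In AGS PPP1R8 was 0.011 with DESeq2 size factors, 0.0074 with the 1 CPM filter, 0.011 with DESeq2 and -0.024 to 0.020 with libraries left out, and PPP1R7 was -0.14 to 0.0090. In MKN1 PPP1CB was 0.0045 with the 1 CPM filter and -0.077 to 0.046 with libraries left out, PPP1R11 -0.13 to 0.025 and PPP1CA -0.15 to 0.056. The difference of PPP1R7 was -0.13 to 0.032, of PPP1R15A -0.13 to 0.43 and of PPP1R12A -0.087 to 0.21. The cause was not tested. Of the other values of single genes, 965 kept direction and side of the threshold, 67 lost the call and 12 gained it.

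Replicate numbers were not used as pairs in the main test. In a check for pairing, same-numbered treated and untreated libraries correlated at 0.01, 0.02 and -0.04 in AGS and 0.08, -0.04 and 0.18 in MKN1. Libraries with different numbers gave -0.07 to 0.05 in AGS and -0.18 to 0.12 in MKN1. These values are not the correlations of log2 levels between replicates given above. With so few pairs the check cannot settle whether the numbers pair samples. With the replicate block the counts were 3 in MKN1 (8.11%, against 5.95% of all tested genes) and 8 in AGS (21.6%, against 20.2%). They were 8 for the difference and 28 between lines, beside 3235 and 13427 of all 20280 tested genes. PPP1R12C in AGS lost its call with this block (adjusted p = 0.0606). At 3 libraries a group, genes under 1 CPM such as PPP1R3G in AGS were near the limit of detection.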
